A study of Homo sapiens with 16 samples.

Results

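Lysine metabolism enzymes were represented by 9 promoters (CCBL2, BBOX1, PLOD1, ALDH9A1, DHTKD1, ACAT1, AADAT, HADH and GCDH), chosen by gene symbol among 21857 promoters. The study that produced these data had reported lysine metabolism as enriched among promoters particular to 20 min of stimulation. The choice of the group is therefore not independent of the values. Nucleosomes were mapped by MNase digestion and enrichment of transcription start site (TSS) regions in GM12878, an established line of human B lymphoblasts immortalized with Epstein-Barr virus. Cells were left untreated or were stimulated with heat-killed Salmonella typhimurium (HKST), which presents bacterial products without a live infection, and were collected after 20, 40 or 60 min. Chromatin of each time point was cut with either 20 U (light digest) or 200 U (heavy digest) of MNase, in 2 replicates each, which gives 16 samples of 1 cell line. The sample titles of the first replicate carry the label NOHDI, which they do not explain, and those of the second do not carry it. The deposited tables, 8 in all, hold 1 digest of 1 time point each with both replicates pooled, so no spread between replicates could be given and no test between conditions was made.

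Lysine is broken down in mitochondria through the saccharopine pathway, in which its nitrogen is passed on, the carbon chain is oxidized to glutaryl-CoA and the product is broken down to acetyl-CoA. Trimethylated lysine released from proteins is also the starting point of carnitine, which carries fatty acids into mitochondria, and lysine within procollagen is hydroxylated so that collagen can be cross-linked. Among the 9 genes, AADAT and CCBL2 encode transaminases, DHTKD1, GCDH, HADH and ACAT1 encode enzymes of oxidation to acetyl-CoA, ALDH9A1 and BBOX1 act in carnitine synthesis, and PLOD1 encodes a procollagen lysyl hydroxylase.

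Of the 9 promoters, 5 were complete in all 8 tables as received (CCBL2, BBOX1, PLOD1, ALDH9A1 and DHTKD1), and ACAT1, AADAT and GCDH, 8 in all, were complete in the 6 tables without 20 min. HADH was not held by the untreated heavy table, so its change from untreated could not be calculated, and ACAT1 was held at 20 min by the heavy table alone. The heavy tables rested on 3.27 to 7.04 M fragments and the light tables on 9.43 to 10.5 M. Values count the centers of 140 to 200 bp fragments that fall in windows of 60 bp, divided by the M fragments of the table (rpm). MNase sensitivity was calculated as log2 of the light over the heavy mean value between -200 and 0 bp of the TSS, the region of the -1 nucleosome, after 0.122 rpm was added to both. Values above 0 mark fragments released mostly by the light digest (sensitive), and values below 0 those recovered mostly by the heavy digest (resistant). Each is given with a 95% interval for the counting of fragments (counting interval), which holds neither the spread between cultures nor differences in the extent of digestion between tubes. A change past 2-fold is a log2 change above 1 or below -1.

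The upstream sequences of 3 members are shown as context for their nucleosome values: PLOD1 and DHTKD1 are among the 4 members with an almost empty TSS, and GCDH reached the highest sensitivity. They run from -200 to -1 bp, were read 5′ to 3′ from GRCh37, the build of the tables (hg19), and carry in capitals the matches, on either strand, to 3 motifs. The first is the CCAAT box, named by its own letters. The second is the GC box, spelled GGGCGG and bound by factors of the Sp1 family. The third, spelled CGGAAG, is the core sequence bound by factors of the ETS family.
PLOD1 (chr1:11994524-11994723, plus strand): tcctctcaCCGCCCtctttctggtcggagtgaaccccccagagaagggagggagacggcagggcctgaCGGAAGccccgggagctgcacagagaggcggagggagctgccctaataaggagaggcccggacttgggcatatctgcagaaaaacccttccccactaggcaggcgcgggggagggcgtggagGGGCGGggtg
DHTKD1 (chr10:12110716-12110915, plus strand): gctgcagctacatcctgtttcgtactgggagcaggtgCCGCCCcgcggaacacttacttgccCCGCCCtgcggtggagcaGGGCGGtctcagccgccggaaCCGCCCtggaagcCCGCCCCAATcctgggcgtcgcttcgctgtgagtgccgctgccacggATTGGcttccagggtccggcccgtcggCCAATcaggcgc
GCDH (chr19:13001743-13001942, plus strand): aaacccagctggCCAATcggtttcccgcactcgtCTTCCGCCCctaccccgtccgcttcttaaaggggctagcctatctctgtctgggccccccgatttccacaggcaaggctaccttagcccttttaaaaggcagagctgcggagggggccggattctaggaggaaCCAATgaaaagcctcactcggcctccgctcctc
A CCAAT box was found at 6 of the 9 members, against 28.4% of all promoters, a GC box at 6 of 9 against 46.0%, and the ETS core at 2 of 9 against 15.2%. DHTKD1 held 3 CCAAT boxes, at -81, -39 and -12 bp (the first base of each match), together with 5 GC boxes. Some matches overlap, as at DHTKD1, where the GC box nearest the TSS shares a base with the CCAAT box at -81 bp, and at GCDH, where the ETS core runs into a GC box. The TATA box, searched as TATAAA, was found at 0 of 9 members in this window, against 7.91% of all promoters. The E-box, with the letters CACGTG, was found at 0 of 9 against 5.63%. The consensus motifs of the interferon-stimulated response element and of NF-kB were also found at 0 of 9, against 2.11% and 8.66%. GC content ranged from 47.5% at BBOX1 to 75% at AADAT, around a median of 61% over all promoters. BBOX1 was also the poorest in CpG, with 1 in these 200 bp, whereas AADAT had 26 and the median promoter had 12. The TSS of CCBL2 (chromosome 1, listed as KYAT3 in GENCODE) is also the TSS of RBMXL1, which has a row of its own, and the pair hold equal values in every bin of all 8 tables. At ALDH9A1 (chromosome 1, TSS at 165667900) a transcript of the opposite strand, LOC440700 in the tables, starts 87 bp upstream. Antisense transcripts also start 153 bp downstream of the ACAT1 TSS (chromosome 11, 107992258) and 10 bp downstream of the HADH TSS (chromosome 4, 108910870; CYP2U1-AS1). BBOX1 (chromosome 11, 27062509) and AADAT (chromosome 4, 171011183) have annotated 5′ exons with untranslated sequence within the upstream 200 bp.

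In untreated cells the sensitivity of the members between -200 and 0 bp lay on both sides of 0, within counting error. Of the 8 members with a value, 4 were above 0 and 4 below, with a median of 0.064, and the median over 16233 promoters was 0.026. In order the levels were 0.68 at GCDH, 0.60 at PLOD1, 0.30 at ALDH9A1, 0.16 at ACAT1, -0.035 at DHTKD1, -0.14 at BBOX1, -0.24 at CCBL2 and -0.72 at AADAT, and the counting intervals of all neighbors in this order overlapped. A counting interval wholly above 0 was found at 0 of 8 members (9.25% of all promoters) and one wholly below 0 at 0 of 8 (10.7%). In the window of -280 to -140 bp, centered on the average -1 peak and better covered, 7 of 8 members were above 0. Intervals there were above 0 at 2 of 8 (11.4% of all promoters), namely ACAT1 at 1.01 (0.33 to 1.93) and PLOD1 at 0.68 (0.21 to 1.18), and below 0 at 1 of 8 (8.88%), AADAT at -1.47. Between -200 and 0 bp at 20 min CCBL2, PLOD1 and ALDH9A1, 3 of 5 members, had intervals above 0 (12.4% of all promoters), and BBOX1, 1 of 5, was below (9.51%). At 40 min 0 of 9 members lay above (7.68%) and 0 of 9 below (8.11%). At 60 min 6 of 9 (CCBL2, PLOD1, ALDH9A1, ACAT1, HADH and GCDH) lay above (16.2%), and AADAT, 1 of 9, lay below (14.2%); ACAT1 was below 0 at 60 min, at -0.17, when ratios were averaged over bins. Over the 2 kb the 8 members with both untreated tables carry more signal than the median promoter in untreated cells. Between -200 and 0 bp this does not hold for all of them. The untreated light table held 0.83 fragments there at DHTKD1, 6.5 at AADAT and 12.8 at GCDH, against a median of 16.3, and the other members were above it. The heavy table at 60 min is the deepest of the heavy tables and that at 40 min the shallowest, which moves how often an interval leaves 0. The part of depth in these counts was not tested.

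**Figure D1:**
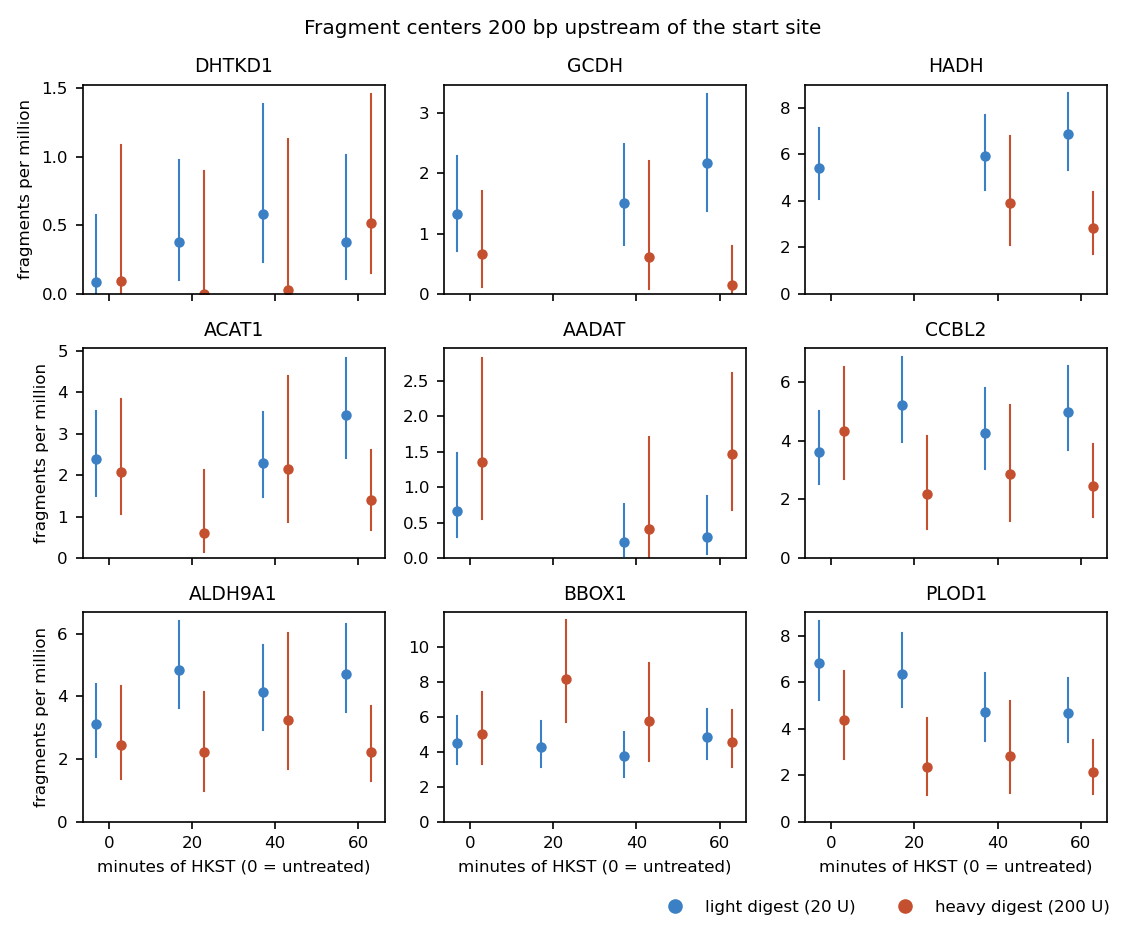
Fragment centers between -200 and 0 bp per M fragments of the table (vertical axis) by minutes of HKST (horizontal axis) for the 9 members, with the light digest in blue and the heavy digest in red. Bars are exact 95% counting intervals of single pooled tables; the heavy values of CCBL2 and PLOD1 were highest in untreated cells, and the vertical scale differs between panels.

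Between -200 and 0 bp CCBL2 was the one member whose change from untreated was larger than its counting error, toward sensitivity at 20 and 60 min. The 60 min change was larger at GCDH, at 1.54, but within counting error. CCBL2 encodes a transaminase that acts on kynurenine, a breakdown product of tryptophan, and on related amino acids. Its light values were 1.08 rpm untreated and 1.56, 1.27 and 1.49 rpm at 20, 40 and 60 min, from 35, 54.5, 40.0 and 50 fragments. Its heavy values were 1.29 rpm untreated and 0.66, 0.86 and 0.74 rpm, from 22.1, 9.0, 9.33 and 17.3 fragments. All 3 stimulated tables were thus above the untreated table in the light digest and below it in the heavy digest. The 3 comparisons share the untreated tables and are not independent of one another. Sensitivity went from -0.24 to 1.12 at 20 min, a log2 change of 1.35 with a counting interval of 0.14 to 2.98. At 60 min the change was 1.14 (0.090 to 2.51), and at 40 min it was 0.75, within counting error (-0.52 to 2.36). Neither digest alone moved beyond counting error at 20 min, with log2 changes of 0.49 in the light digest (-0.091 to 1.20) and -0.87 in the heavy digest (-2.28 to 0.20). Over the whole 2 kb around the TSS the 20 min change of CCBL2 was 0.057, so the shift of the -1 region was not seen across the promoter. In a window of -290 to -130 bp, centered on the average -1 peak, the change of the -1 region was 0.63 at 20 min and 0.96 at 60 min, no longer past 2-fold. In the 140 bp window around that peak the intervals included 0 (0.66, -0.67 to 2.15, at 20 min and 1.07, -0.15 to 2.43, at 60 min).

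AADAT encodes the transaminase that converts aminoadipate, the last amino acid of lysine breakdown, to oxoadipate. Its -1 region was thinly covered, with 0.21 rpm in the untreated light table and 0.43 rpm in the heavy table. The light values at 40 and 60 min were 0.073 and 0.091 rpm, and the heavy values were 0.13 and 0.46 rpm. At 60 min this gave a sensitivity of -1.46 (-4.75 to -0.30), at or below which 2.79% of promoters lay, from 2.92 light and 10.3 heavy fragments. The change from untreated, -0.74, was within counting error (-4.30 to 1.41). In the better covered window of -280 to -140 bp AADAT was resistant already in untreated cells, at -1.47 (-2.64 to -0.61) from 14.8 light and 24.2 heavy fragments, and only 2.93% of promoters were at or below it. It was at -1.69 (-3.50 to -0.54) at 40 min and at -1.85 (-3.47 to -0.90) at 60 min, with 1.22% and 0.953% of promoters at or below. Both changes from untreated in that window, -0.22 and -0.38, were within counting error.

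Of the 4 enzymes of oxidation to acetyl-CoA, GCDH showed the highest sensitivity at 60 min, on very few heavy fragments. GCDH oxidizes glutaryl-CoA to crotonyl-CoA. Its light values were 0.40 rpm untreated and 0.45 and 0.65 rpm at 40 and 60 min, and its heavy values were 0.20, 0.18 and 0.043 rpm, from 3.42, 2.00 and 1.00 fragments. Sensitivity was 0.68 untreated, 0.91 at 40 min and 2.23 at 60 min, where its counting interval was 1.31 to 9.31 and 99.1% of promoters were at or below it. The 60 min change of 1.54 was past 2-fold but within counting error (-1.11 to 8.53). ACAT1, the thiolase that yields acetyl-CoA in the last step, had light values of 0.72, 0.69 and 1.04 rpm and heavy values of 0.63, 0.64 and 0.42 rpm in untreated cells and at 40 and 60 min. The 20 min heavy value of ACAT1 was 0.18 rpm, from 2.50 fragments, the lowest of its heavy tables. Its sensitivity was 0.16, 0.088 and 1.10 in the 3 time points with both digests, and the 60 min change was 0.93 (-0.48 to 2.78). With ratios averaged over bins the 60 min level was -0.17 and the change 0.0074.

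HADH, which oxidizes hydroxyacyl-CoA, had light values of 1.63, 1.78 and 2.06 rpm untreated and at 40 and 60 min, and heavy values of 1.18 and 0.85 rpm at 40 and 60 min. Its sensitivity was 0.55 at 40 min and 1.17 at 60 min (0.53 to 2.07), and the difference of 0.61 between them was within counting error (-0.57 to 1.91). DHTKD1 encodes the first component of the oxoadipate dehydrogenase complex, and its -1 region was nearly without fragments. The light tables held 0.83, 4.00, 5.50 and 3.83 fragments in untreated cells and at 20, 40 and 60 min, and the heavy tables held 0.50, 0, 0.083 and 3.67. Because both untreated values are below 3 fragments, no fold is given for it; the log2 differences from untreated (0.99, 1.23 and -0.20) depend on the value added before the ratio.

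In carnitine synthesis neither of the 2 members changed beyond its counting error between -200 and 0 bp. ALDH9A1, the aldehyde dehydrogenase before the last step, had light values of 0.93, 1.46, 1.25 and 1.42 rpm and heavy values of 0.74, 0.67, 0.97 and 0.67 rpm in untreated cells and at 20, 40 and 60 min. The light values of the stimulated tables were all above the untreated one, and sensitivity was 0.30, 1.00, 0.33 and 0.96. The changes at 20 and 60 min were 0.70 (-0.66 to 2.45) and 0.67 (-0.60 to 2.15). BBOX1, the hydroxylase that completes carnitine, had light values of 1.36, 1.29, 1.12 and 1.45 rpm and heavy values of 1.51, 2.46, 1.73 and 1.36 rpm. The 20 min heavy value was the highest heavy value among members in any table, and sensitivity went from -0.14 to -0.87 (-1.61 to -0.25), a change of -0.73 that was within counting error (-1.80 to 0.25). With ratios averaged over bins its 20 min level was 0.096 and the change turned to 0.065. At 60 min BBOX1 was at 0.082, close to its untreated value.

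PLOD1, which hydroxylates lysine in procollagen, had the highest light value of the -1 region in untreated cells, 2.15 rpm, and 2.01, 1.49 and 1.48 rpm at 20, 40 and 60 min. Its heavy values were 1.38, 0.75, 0.89 and 0.68 rpm, so the untreated table was the highest in both digests. Sensitivity was 0.60, 1.29, 0.67 and 1.00. The changes of 0.69 at 20 min (-0.53 to 2.09) and 0.40 at 60 min (-0.71 to 1.68) were within counting error. At 60 min the light and heavy values of PLOD1 differed from untreated by log2 changes of -0.51 (-1.11 to 0.019) and -0.91, and the interval of the heavy change ended just below 0 (-2.06 to -4.8e-05).

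**Figure D2:**
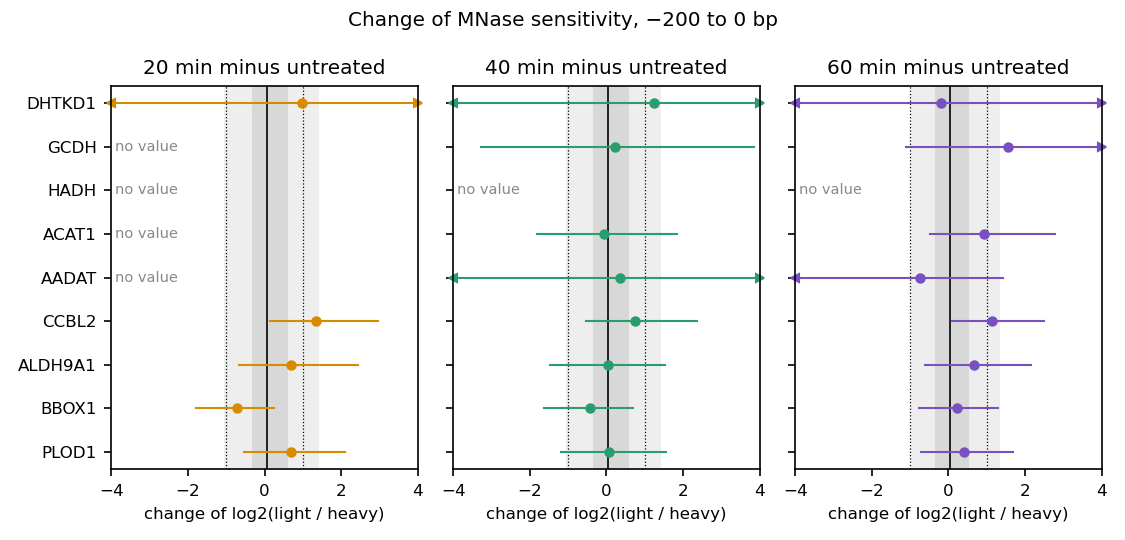
Change of MNase sensitivity (log2 light over heavy, -200 to 0 bp) from untreated at 20, 40 and 60 min for each member, with 95% counting intervals; arrows mark intervals that run past the axis. Gray bands hold the middle 50% and 90% of all promoters, the solid line is their median and dotted lines mark 2-fold; only CCBL2 has intervals above 0, at 20 and 60 min.

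Counted together, more members lay above than below their untreated values between -200 and 0 bp, but most of the rises at 40 min turned sign under other processing. At 20 min 4 of 5 members were higher and 1 lower, with a median change of 0.70, against 54.7% higher and a median of 0.078 over 2797 promoters. The group was taken up from a report on the 20 min values of these data, so this contrast is not independent of the choice. CCBL2 alone, 1 of 5, was past 2-fold higher, which 11.8% of all promoters were, and 0 of 5 were past 2-fold lower (5.36%). The counting interval was above 0 at 1 of 5 members (1.75% of all promoters) and below 0 at 0 of 5 (1.72%). At 40 min 6 of 8 members were higher, with a median of 0.15, against 52.9% and 0.050 over 16233 promoters. Among these, PLOD1, ALDH9A1, AADAT and GCDH turned sign under at least 1 alternative way of processing. AADAT rested on 2.17 light and 1.33 heavy fragments at 40 min. In the window of -280 to -140 bp 3 of 8 were higher and 5 lower at 40 min, with a median of -0.16. Past 2-fold higher at 40 min was 1 of 8 (11.5%), which is DHTKD1, for which no fold is given, and 0 of 8 were lower (5.61%). The counting interval was above 0 at 0 of 8 (1.51%) and below 0 at 0 of 8 (1.20%). At 60 min 6 of 8 were higher, with a median of 0.53, against 51.4% and 0.027, and CCBL2 and GCDH, 2 of 8, were past 2-fold higher (9.6%) and 0 of 8 lower (4.29%). The interval was above 0 at 1 of 8 (2.04%) and below 0 at 0 of 8 (1.87%). The counts past 2-fold, of 1 or 2 members each, are near the background, and those by counting interval rest on CCBL2 alone. Without CCBL2 the count past 2-fold higher was 0 at 20 min and 1 at 60 min, and without DHTKD1 it was 0 at 40 min. Without DHTKD1, 3 of 4, 5 of 7 and 6 of 7 members were higher at 20, 40 and 60 min, with medians of 0.70, 0.068 and 0.67. The 3 time points share the untreated tables, so a high or low untreated value moves all of them, and whether the extent of digestion differed between tables cannot be told apart from the time of HKST.

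**Figure D3:**
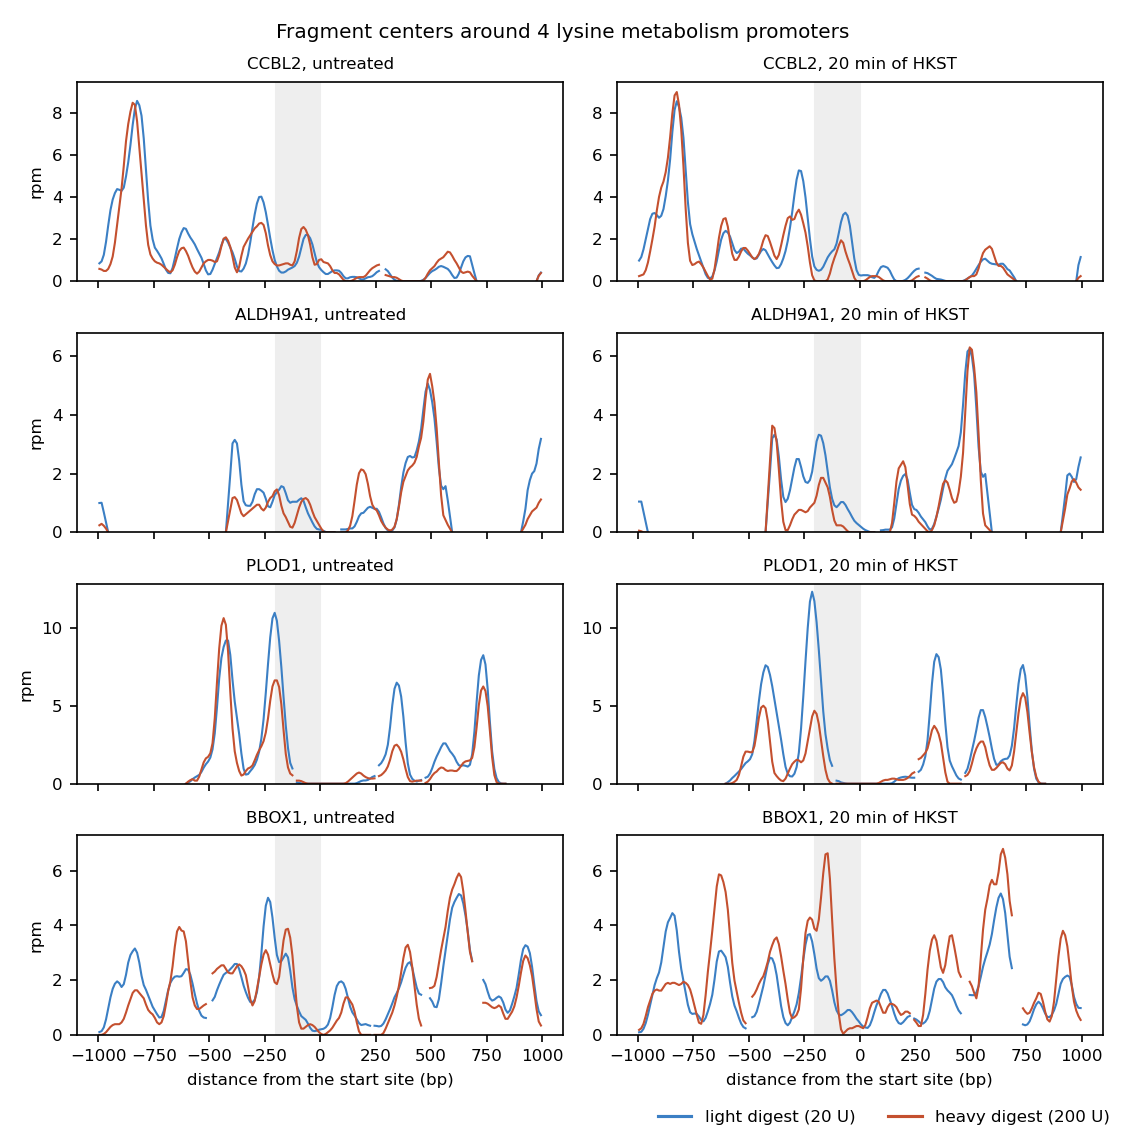
Fragment centers (rpm, vertical axis) by distance from the TSS (bp, horizontal axis) in the light digest (blue) and the heavy digest (red), untreated (left) and at 20 min (right), for CCBL2, ALDH9A1, PLOD1 and BBOX1, as means over 3 bins of 10 bp. The shaded -200 to 0 bp is the -1 region; at 20 min the red line is mostly below the blue there in CCBL2, ALDH9A1 and PLOD1 and mostly above it in BBOX1.

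Over the 2 kb, where more fragments narrow the intervals, sensitivity at 20 min was below untreated at BBOX1 and above it at PLOD1, beyond counting error. Such values rest on the bins that hold a value, 190 of 200 at BBOX1, 142 at PLOD1 and 116 at ALDH9A1. Among the members these bins ranged from 106 at DHTKD1 to 197 at HADH. The light value of BBOX1 was 1.78 rpm untreated and 1.58, 1.53 and 1.48 rpm at 20, 40 and 60 min, and its heavy value was 1.63, 2.21, 1.62 and 1.84 rpm. Its sensitivity changed by -0.57 at 20 min (-0.91 to -0.30), at or below which only 2.00% of promoters lay, and by -0.41 at 60 min (-0.73 to -0.15). The rise of its heavy value at 20 min, by a log2 change of 0.41 (0.19 to 0.68), was larger than the change of its light value, -0.16 (-0.35 to 0.0050). PLOD1 went from 0.45 to 0.85 at 20 min, a change of 0.40 (0.055 to 0.79), with 2.34 and 2.57 rpm in the light tables and 1.68 and 1.37 rpm in the heavy tables. At 20 min 1 of 5 members had an interval above 0 (10.5% of all promoters) and 1 of 5 below (9.35%). With 1 member in each direction at each time point, the counts over the 2 kb are near the background.

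At 40 min AADAT moved up by 0.36 (0.089 to 0.68), 1 of 8 members (5.90% of all promoters), and ACAT1 moved down by 0.45 on the log2 scale (interval -0.84 to -0.11), also 1 of 8 (5.20%). At 60 min ALDH9A1 moved up by 0.42 (0.0020 to 0.91), 1 of 8 (7.99%), and BBOX1 moved down, 1 of 8 (9.27%). The ALDH9A1 change came with its light value, which was 1.28 rpm untreated and 1.69 rpm at 60 min, while the heavy value was 1.05 and 1.01 rpm. AADAT was the most resistant member over the 2 kb in untreated cells, at -0.69 (-0.92 to -0.54), and only 7.71% of promoters were at or below it. HADH was the most sensitive at 40 min, at 0.65 (0.37 to 1.16), above 91.5% of promoters.

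Windows of 140 bp at the average positions of the 6 nucleosomes from -3 to +3 gave 114 member values of change over the 3 time points. Of these, 3 had a counting interval above 0 (1.71% of all promoter values in these windows) and 3 below (1.55%), shares of the members that are close to the background. PLOD1 accounted for 2 of the rises, both at the -2 nucleosome, where sensitivity was 0.14 untreated, 1.08 at 20 min and 0.79 at 60 min (changes of 0.94, 0.15 to 1.81, and 0.65, 0.023 to 1.33). The heavy fragments there were 60.8 untreated and 22.6 at 20 min. The +2 nucleosome of PLOD1 went the other way at 60 min, from 1.28 to 0.27, a change of -1.01 (-2.10 to -0.051).

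BBOX1 gave the other falls. Its -1 nucleosome, in the window centered at -210 bp, went from 0.33 to -0.66 at 20 min (-0.98, interval -1.90 to -0.15). Its -2 nucleosome went from -0.15 to -1.34 at 60 min (-1.19, interval -2.29 to -0.25). ALDH9A1 gave the third rise, at the +1 nucleosome at 40 min, from -1.27 to 0.77 (2.04, interval 0.24 to 4.58). It rested on 7.67 light and 11.7 heavy fragments untreated and on 25.9 and 4.92 at 40 min.

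The placement of nucleosomes differed widely between members. The total signal (light plus heavy) over the 2 kb was above the median of all promoters at 8 of 8 members in untreated cells, from 2.32 rpm at ALDH9A1 to 4.30 rpm at AADAT against a median of 2.24 rpm. HADH, the ninth member, was below the median where it could be measured, with 1.65 rpm at 40 min and 1.78 rpm at 60 min against 2.27 and 2.28 rpm. In untreated cells the nucleosome-depleted region, from -100 to 50 bp, was almost empty at AADAT, PLOD1, ACAT1 and DHTKD1. Log2 values relative to the 2 kb were -5.10, -4.71, -4.70 and -4.63. These 4 of 8 members were among the lowest 2% of promoters, against a median of -1.86 over all promoters. A high total over the 2 kb lowers this value, so the ranks partly follow the totals. ACAT1 was at -3.70 at 40 min and -4.42 at 60 min, with 14.2% and 2.81% of promoters at or below. DHTKD1 had 0 rpm in this region in the untreated, 20, 40 and 60 min tables. Untreated values of GCDH, BBOX1 and ALDH9A1 were -2.70, -2.36 and -1.15.

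At CCBL2 the region was filled, at -0.022, with 2.66 rpm against 2.70 rpm over the 2 kb, and it remained between -0.33 and -0.22 after HKST. HADH was likewise shallow, at -0.28 and -0.60 at 40 and 60 min. The tallest untreated peaks were at 795 bp in AADAT (36.0 rpm), at -395 bp in GCDH (29.4 rpm) and at 895 bp in ACAT1 (21.4 rpm). DHTKD1 peaked at 475 bp (20.3 rpm), PLOD1 at -435 bp (19.4 rpm), CCBL2 at -835 bp (16.5 rpm), BBOX1 at 625 bp (11.0 rpm) and ALDH9A1 at 485 bp (10.3 rpm). These peaks stood within 20 bp of the same place at the other time points with both tables, except at PLOD1 and ACAT1. PLOD1 was highest at -215 bp at 20 min (16.7 rpm). ACAT1 was highest at -875 bp at 40 min (21.7 rpm) and 60 min (24.7 rpm), where a second peak of 19.0 rpm stood in untreated cells. At AADAT the 795 bp peak was 31.2 rpm at 40 min and 23.6 rpm at 60 min.

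**Figure D4:**
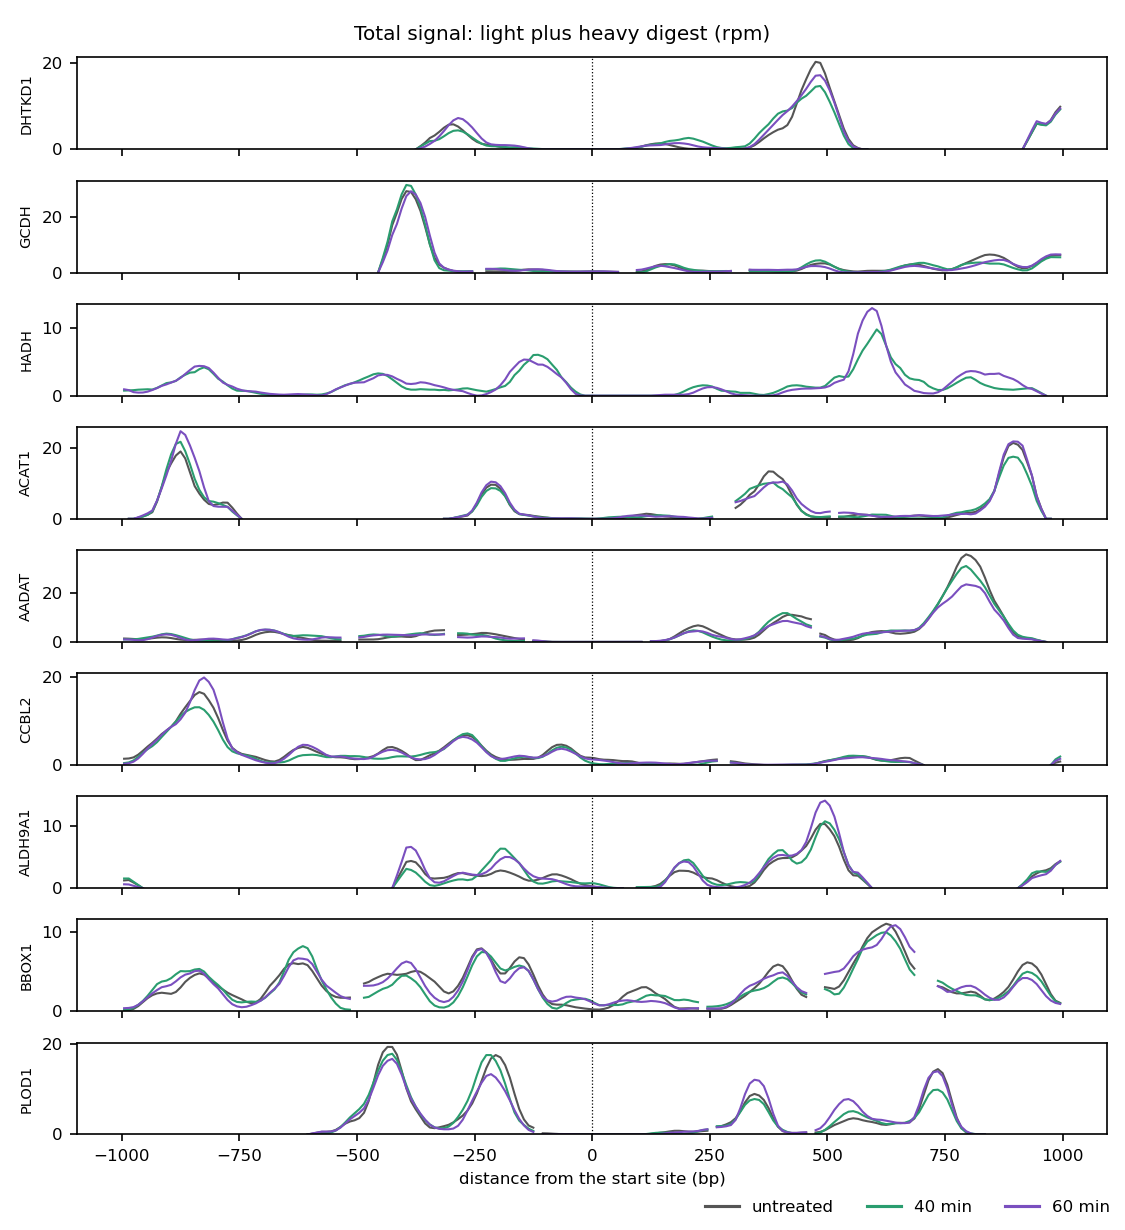
Total signal (light plus heavy, rpm, vertical axis) by distance from the TSS (bp, horizontal axis) for the 9 members, untreated (gray) and after 40 min (green) and 60 min (purple) of HKST, as means over 3 bins of 10 bp; the dotted line is the TSS and gaps are bins without a value. The peaks of the time points stand at nearly the same places in each member, and HADH has no untreated line.

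Other genes of lysine use were taken from 6 lists of 54 genes, of which 50 had a promoter in the tables and 43 had a value at 40 and 60 min. The lists hold the rest of the saccharopine pathway, carnitine synthesis, hydroxylysine and collagen cross-linking, the pipecolate branch, the kynurenine transaminases and their partners, and lysine transport and charging. Their median change was -0.0022 at 40 min and -0.081 at 60 min, and 2 promoters could be compared at 20 min. At 40 min 2 of 43 were past 2-fold higher (11.5% of all promoters) and 3 lower (5.61%), and at 60 min 3 were higher (9.6%) and 4 lower (4.29%). Counting intervals left 0 at 0 of 43 at 40 min (1.51% of all promoters above and 1.20% below). At 60 min they did so at 1 of 43 in each direction (2.04% of all promoters above and 1.87% below), which is near the background. At ECHS1, SLC7A1, LOXL4, PYCR1, SLC25A29, CCBL1 and AFMID, with few or no fragments, the intervals had no limits at 40 and 60 min. They could not leave 0 there.

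KARS, the lysyl-tRNA synthetase that loads lysine for translation, had light values of 0.23, 0.21 and 0.44 rpm and heavy values of 0.47, 0.092 and 0.078 rpm in untreated cells and at 40 and 60 min. Its sensitivity was -0.74, 0.65 and 1.49, a 60 min change of 2.24 (0.63 to 6.99) from 14.8 light and 1.83 heavy fragments. LOXL1, a lysyl oxidase that cross-links collagen and elastin, had light values of 1.09, 0.99 and 0.43 rpm and heavy values of 1.43, 1.20 and 1.58 rpm. It went from -0.36 to -1.63 at 60 min, a change of -1.27 (-2.96 to -0.015). The hydroxylysine and collagen list had a median change of -0.44 at 60 min, with 1 of 8 promoters higher and 6 lower. Over all promoters the median was 0.027, with 51.4% higher and 42.7% lower. At 40 min this list went the other way, with a median of 0.13 and 5 of 8 higher and 2 lower. All promoters then had a median of 0.050, with 52.9% higher and 41.0% lower. LOXL4, 1 of the 8, had no fragments in either digest at these times or untreated. The saccharopine list had a median change of -0.040 at 60 min, with 5 of 12 higher and 6 lower. ECHS1, which held no fragments in either digest at 60 min or untreated, was neither.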

How the data were processed

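Promoter nucleosomes of GM12878 cells were measured in 16 samples. The authors aligned paired reads to hg19 (with Bowtie2 2.2.2, SAMtools and bedtools, as the submitters' notes give them), counted centers of 140 to 200 bp fragments in 60 bp windows every 10 bp, pooled 2 replicates and deposited the values as rpm. In the deposited values 1 fragment enters 6 windows and low values rise in steps of 0.5 fragment (100% of values within 0.05 of a step), from which fragments and depth were recovered. As received, 3 tables end in a partial line, so 2801 promoters (12.8%) had all 8 tables. Bins without a value were left out.

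The pseudocount (0.122 rpm) is 0.1 of the mean value. Counting intervals are exact (Clopper-Pearson for levels, conditional odds ratio for changes, of fragments rounded to whole numbers, without the pseudocount, hence not centered on the value). The odds ratio interval alone was tested on simulated data, drawn with the independent counts that it assumes. PCR copies are not independent molecules, so the intervals cover counting error only. Sequences were read from GRCh37 and annotated with GENCODE, and the upstream sequence of CCBL2 is not reported here. All 9 members are named; of the other lists, promoters past 2-fold with an interval that excludes no change. Members and lists were chosen with earlier results of these data known. Alternatives were the pseudocount, the window, the averaging of ratios, scaling, a fragment filter, the call and the set of promoters. Python 3.11.15, numpy 2.4.6, scipy 1.17.1 and matplotlib 3.10.9 were used.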

Additional observations from a re-analysis of the deposited data

How the results depend on the processing

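Each table pools both replicates, so no replicate could be left out. No paired analysis was possible because the tables do not keep the replicates apart. The fragment filter keeps or drops a value without changing it, so 14 of 140 recomputed changes and 22 of 208 recomputed levels could not move. All 140 changes of members recomputed under the alternatives stayed within their counting intervals, and of 208 recomputed levels 205 did. The exceptions were BBOX1 at 20 min (0.096) and ACAT1 at 60 min (-0.17, reversed from 1.10), both with the mean of bin ratios, and GCDH at 60 min with a pseudocount of 0.5 of the mean (0.95). These intervals are wide, and of the 21 changes 7 turned sign under at least 1 alternative: BBOX1 at 20 and 60 min, PLOD1, ALDH9A1, AADAT and GCDH at 40 min, and DHTKD1 at 60 min. CCBL2 was higher at each time point under all 7 alternatives, of which the fragment filter could not change the value. Its change was 0.63 to 1.97 at 20 min, 0.0074 to 0.79 at 40 min and 0.81 to 1.20 at 60 min.

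The counts past 2-fold, of few members each, moved with most choices. The count higher at 20 min was 2 with a pseudocount of 0.05 of the mean or the mean of bin ratios, 0 with a pseudocount of 0.5 of the mean, 0 with a window of -290 to -130 bp, 0 without CCBL2 and 4 past 1.5-fold; the count lower was 1 with a window of -250 to -100 bp and 1 past 1.5-fold. At 40 min the count higher was 0 with a pseudocount of 0.5 of the mean, either other window, the mean of bin ratios, 5 or more fragments in both tables, without DHTKD1 or called by the counting interval, and 2 past 1.5-fold. At 60 min it was 0 with a pseudocount of 0.5 of the mean or the window of -290 to -130 bp, 1 with 5 or more fragments, 1 with promoters complete at 20 min, 1 without CCBL2, 1 by the counting interval and 4 past 1.5-fold, and the count lower was 1 past 1.5-fold. The settings without CCBL2 or DHTKD1 were chosen after seeing the data. The median depth of the nucleosome-depleted region in untreated cells was -2.43 from -150 to 0 bp and -3.66 from -100 to 50 bp. The cause of these differences was not tested.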
